A study of Mus musculus with 16 samples.

Results

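The regions described here are stretches of Dazl-crosslinked RNA that map deep inside long mouse genes, more than 10000 nt from both ends of the gene span. Listed intervals of coverage at most 10 nt apart were joined into 8338 regions, and 932 of these (11.2%) lay in exactly 1 gene span of the RefSeq annotation of mm10 and beyond that distance. They are called deep regions. The 3198 regions in 1 gene and within 1000 nt of an end of its span, called end regions, served for comparison. The method was KIN-CLIP, a form of iCLIP that joins protein and RNA covalently with short pulses of ultraviolet laser light over defined times. It was applied to GC-1 spg cells, a mouse line derived from spermatogonia. All libraries came from a single monoclonal derivative that makes Dazl under doxycycline, and doxycycline was given in all conditions. Laser power was 1 or 2.6 mW, the Dazl level was 1x or 4.2x, and crosslinking lasted 30, 180 or 680 s. Each of the 12 conditions had 1 library, so no value has a replicate error, and the 4 samples of 0 s were not analysed here.

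Dazl is a germ cell RNA-binding protein that is known to bind short U-rich motifs with a central GUU, mostly in 3′ untranslated regions of messenger RNAs, where it affects stability and translation. Sites far inside a long gene can lie in introns, in inner exons, or at the end of a transcript shorter than the full gene span. The annotation used here gave gene spans and start sites but no exons, so introns and inner exons could not be told apart for any of the 932 regions. No RNA level was used here, so stronger binding and more RNA cannot be told apart either.

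The coverage of a region is the sum over its positions of the deposited value, a whole number from 1 to 24 per position. It grows with width, so levels of different regions are also given per nt. Summed over all regions, coverage ran from 11271 to 252932 per library, of which deep regions held between 7.18% and 9.62%. Each of the 12 libraries lists a value for each region, and the lowest value in a library was 1 to 3. Whether a region at that value holds signal is not stated in the sources used here. The libraries of a laser and Dazl series were not always separate in their values, most of all at 2.6 mW and 4.2x. In that series, the coverage at 30 s equalled that at 680 s exactly in 288 of the 753 deep regions that reached 10 or more at 680 s (38.2%). Among end regions it did so in 1370 of 2867 (47.8%). In the other series such ties were few, in 0 of 313 deep regions at 1 mW and 1x, 21 of 668 at 1 mW and 4.2x, and 6 of 728 at 2.6 mW and 1x. The p-values below treat the libraries as independent and may be off for that reason. Among germ cell markers 2 of 20 (Sall4 and Mov10l1) had any region, and Dazl itself had none. The method reads RNA crosslinked to Dazl and not RNA level, so a marker without a region may still be expressed.

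A single deep region overlapped a window around an annotated start site, and its sequence is shown because it is the only member for which reference sequence was at hand. It lies in Smarcal1, which encodes an annealing helicase that acts at stalled replication forks. The region, chr1:72583247-72583263 (mm10, plus strand), was 17 nt long and 46552 nt from the 5′ end of the span, and an inner start site fell on its nt 5. Its sequence, credited to RefSeq (GRCm38.p6), is written in the direction of the gene with the letters GTT in capitals.
Smarcal1: aaatgtaGTTcgacggt
Among all 52 regions that lay wholly in a start site window of their gene, 22 (42.3%) held GTT on the strand of the gene, and 16.5% of all 17-nt stretches of the 32851 windows did. These shares are not matched: the 52 regions, of which 1 was deep, were read at their own widths. The windows included those of genes without a region. The motif searched was G, T, T in that order. The coverage of the Smarcal1 region at 30, 180 and 680 s was 1, 1 and 7 at 1 mW and 1x Dazl, and 18, 9 and 15 at 1 mW and 4.2x. Under the stronger laser it was 2, 2 and 25 at 1x and 31, 26 and 31 at 4.2x. At 30 and 180 s it thus stood at or near the lowest value with 1x Dazl and well above it with 4.2x, and the change with Dazl was 1.73 on the log2(coverage + 3) scale used for single regions (limma, adjusted p = 5.74e-08).

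Regions per gene were counted only if they lay whole in that gene span and in no other. The deep regions lay in 614 of the 3067 genes that had such a region. In 413 genes there was 1 deep region, in 146 there were 2, and in 55 there were 3 or more. In 496 of the 614 genes every region counted in this way was deep, whereas 67 genes held both deep and end regions. All but 5 of the deep regions lay in protein-coding genes (927), with 4 in lncRNA genes and 1 in a transcribed pseudogene. The genes were long, with a median span of 88214.5 nt over the 614 genes (range 20875 to 2390390). The median distance to the nearer end was 22348.5 nt, the greatest was 521135 nt, and 169 regions were over 50000 nt from both ends. Most deep regions were exactly 17 nt wide (795, or 85.3%; 78.8% of end regions), and the rest were 13 to 51 nt.

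Deep regions were fewer than an even placement over gene spans would give. Such a placement counts introns as fully as exons and takes no RNA level into account, so the cause of the difference was not tested. Of the 7559 regions in exactly 1 gene, 12.3% were deep (exact binomial 95% interval 11.6% to 13.1%), where an even placement over the spans of the same genes would give 37.4%. Within genes longer than 20000 nt the deep share was 19.1% of 4891 regions, against 57.8% for even placement. The interval covers counting error only and takes regions as separate, although regions of a gene are not.

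Inside the gene, deep regions were shifted towards the 3′ end. The strand was known for 720 of them, and 505 (70.1%) were nearer to the 3′ than to the 5′ end, against 2231 of 2580 end regions (86.5%). Their median position was 62.4% of the way along the gene from the 5′ end, with quartiles at 46.0% and 75.9%. Annotated inner start sites were rarely close: 6 of the 720 lay within 1000 nt of a start site of their gene. Of these, 4 lay after it (in Phactr2, Prickle2, Ptprg and Lin28b), 1 before it (in Tulp4) and 1 over it (in Smarcal1). The inner 3′ ends of shorter transcripts could not be checked in the same way, as the annotation used here does not hold them. None of the 932 overlapped any of 1005 annotated miRNA hairpins, and 2 lay within 1000 nt of a hairpin.

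**Figure D1:**
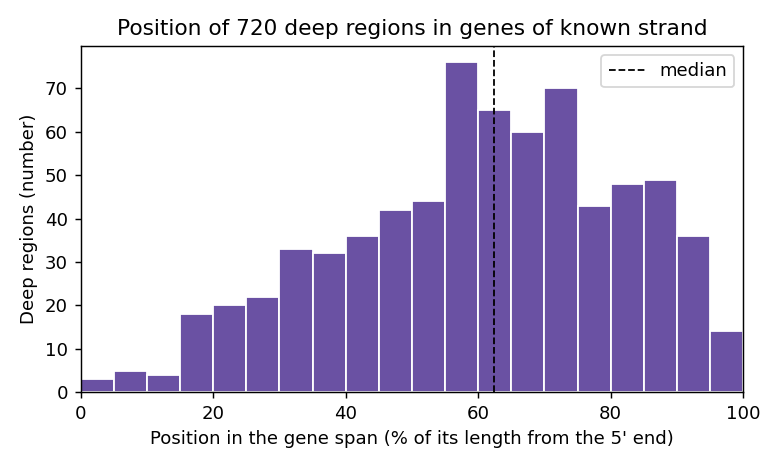
Number of deep regions by position in the gene span, in bins of 5% of its length from the 5′ end, for the 720 deep regions in genes of known strand. The dashed line is the median, 62.4%, and the numbers are highest right of the middle and low near both ends, where the rule removes regions within 10000 nt of an end.

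Deep regions had a close neighbour less often than end regions, but many genes with several of them held them in a tight group. Another region lay within 1000 nt of 441 deep regions (47.3%), and of 81.9% of end regions, with a median gap of 6766 nt for deep and 74 nt for end regions. Of the 201 genes with at least 2 deep regions, 142 (70.6%) had all of them within 1000 nt, and the median stretch from the first to the last was 175 nt. Gpatch2, which encodes a G-patch domain protein, is an example: its 5 deep regions fell within 297 nt (chr1:187351367-187351663) of a span of 157040 nt, between 136761 and 137041 nt from the 5′ end. In Cux1, a homeodomain transcription factor gene of 319456 nt, 4 deep regions fell within 227 nt. Sin3b, a scaffold of histone deacetylase complexes, had 3 within 164 nt, and these summed to 98 both at 30 s and at 680 s in the 2.6 mW, 4.2x series.

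The genes with the most deep regions were Ahnak with 22, Cxadr with 13, Cdk12 with 8, Ewsr1 and Lamp2 with 7 each and Fn1 with 6, followed by genes with 5 each, among them Ctnnd1, Gpatch2, Macf1 and Ncam1. Cxadr encodes a cell adhesion protein of tight junctions that serves as a receptor for coxsackieviruses and adenoviruses. Its 13 regions spread over 3307 nt (chr16:78337418-78340724), with mean coverage over the 12 libraries from 7.58 to 24.9. Cdk12 encodes a kinase of the RNA polymerase II tail, and its 8 regions fell within 2405 nt, 48702 to 51090 nt from the 5′ end of a span of 78669 nt. Ewsr1 encodes an RNA-binding protein of the FET family, with 7 regions in 1612 nt and means from 7.5 to 29.6. The 7 of Lamp2, a lysosomal membrane protein gene, fell within 1735 nt and were even, with means from 7.75 to 11.8. Fn1, encoding fibronectin, and Macf1, encoding a cytoskeletal crosslinker, were spread out instead, over 28753 and 131958 nt. Summed over its regions, Cdk12 had 22, 17 and 86 at 30, 180 and 680 s at 1 mW and 1x, and 104, 61 and 166 at 1 mW and 4.2x. Under the stronger laser Cdk12 had 100, 96 and 206 at 1x, and 211, 211 and 262 at 4.2x. In each of the 4 series the 680 s library of Cdk12 was the highest.

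Ahnak, which encodes a giant scaffold protein, held 22 deep regions of its 23 regions, from 11505 to 29780 nt after the 5′ end of a span of 87652 nt. Their means ran from 8.17 to 40.1. The highest were chr19:9019017-9019049 and chr19:9018932-9018982, both next to the last of the 22. The summed coverage of the 22 regions at 30, 180 and 680 s was 46, 30 and 214 at 1 mW and 1x, and 239, 170 and 454 at 1 mW and 4.2x. At 2.6 mW it was 297, 283 and 636 at 1x and 563, 599 and 768 at 4.2x. Of these 22 regions limma called 19 higher with more Dazl, 22 with more light and 12 at 680 than at 30 s. Over all 8338 regions these calls covered 74.6%, 91.5% and 61.5%.

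**Figure D2:**
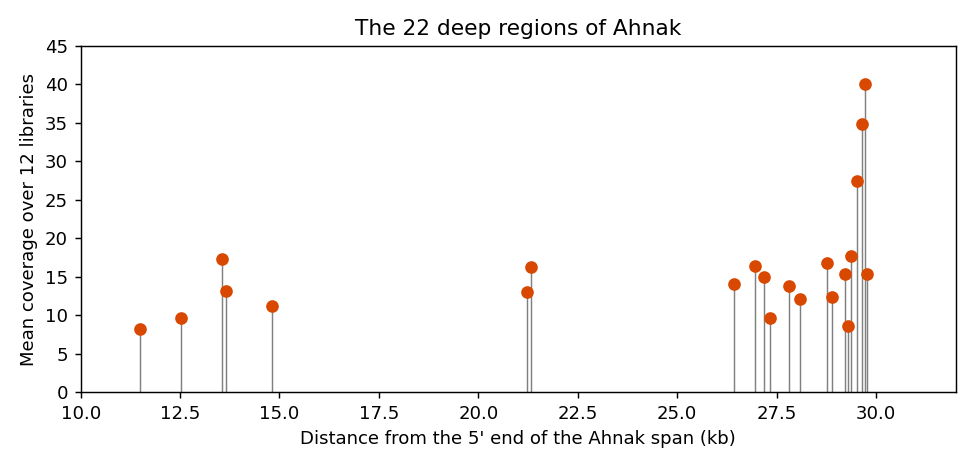
Mean coverage over the 12 libraries (vertical axis) of each of the 22 deep regions of Ahnak against the distance from the 5′ end of the gene span in kb. The regions lie between 11505 and 29780 nt, and the 2 highest, 34.8 and 40.1, stand next to the last one.

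Coverage of single deep regions was lower than at gene ends. The mean over the 12 libraries had a median of 9.75 over deep regions (quartiles 6 and 13.9, range 1.33 to 51.7), and of 12.75 over end regions (quartiles 8.83 and 17.7, highest 415). Per nt the medians were 0.564 and 0.708. In the 3 libraries of 680 s whose lowest value is above 1, 138 deep regions (14.8%) stood at the lowest value in all 3, against 255 end regions (7.97%). This share changed with depth inside the gene. At 680 s, 2.6 mW and 4.2x, 11.4% of the 385 regions 10000 to 20000 nt from an end stood at the lowest value, 14.0% of the 378 regions at 20000 to 50000 nt, and 25.4% of the 169 beyond. The 5 regions farthest from an end lay in Opcml, Nrg3, Ctnnd2 and Dlgap1 (with 2), genes best known from neurons, and none of them exceeded 5 in any library. Just inside the 10000 nt limit were Hbs1l at 10012 nt, Gosr2 at 10044 nt and 4930557K07Rik at 10050 nt, with means of 9, 19.4 and 51.7. Just outside were Sfpq at 9995 nt, Cyp4f39 at 9994 nt and Cdk6 at 9981 nt, with means of 7.42, 3.83 and 10.2.

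The highest deep region lay in a lncRNA gene, 4930557K07Rik, at chr6:125039787-125039803, as the only region of that gene. Its mean was 51.7, or 3.04 per nt. At 30, 180 and 680 s it had 11, 6 and 16 at 1 mW and 1x, 20, 29 and 58 at 1 mW and 4.2x, 74, 52 and 85 at 2.6 mW and 1x, and 90, 89 and 90 at 2.6 mW and 4.2x. It was thus flat over time only in the last series. The other 9 of the 10 highest were in Ctnnd1 (a catenin of adherens junctions, 43.3), Ipo8 (a nuclear import receptor, 40.3), Ahnak (40.1 and 34.8), Vash2 (38.8), Bcr (a regulator of small GTPases, 35.0), Ints10 (an Integrator subunit, 32.8), Zfp185 (31.8) and Cdk12 (31.3, tied with a second region of Zfp185). Per nt Ipo8 (2.37), Ints10 (1.93) and Zfp185 (1.87), each 17 nt wide, came next, and the wider regions of Ctnnd1, Ahnak, Vash2, Bcr and Cdk12 lay between 0.683 and 1.25. The Ipo8 region was at 66, 26 and 51 at 30, 180 and 680 s at 1 mW and 4.2x, where it was highest at the shortest time. In the matched 1x series it was at 1, 1 and 17.

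Dazl level was compared over 6 pairs of libraries matched on time and laser power. The summed coverage of deep regions at 30, 180 and 680 s was 1432, 1084 and 7187 at 1 mW and 1x Dazl, and 6239, 4097 and 13594 at 1 mW and 4.2x. At 2.6 mW it was 6901, 6178 and 18101 at 1x, and 13469, 15152 and 22331 at 4.2x. Every library with 4.2x Dazl exceeded its matched library with 1x, by a mean of 1.25 ± 0.68 on the log2 scale (SD, n = 6 pairs), or 2.38-fold. The exact two-sided sign-flip permutation test gave p = 0.0312, the smallest that 64 flips can give. The difference was greatest at 30 s and 1 mW (4.36-fold) and least at 680 s and 2.6 mW (1.23-fold). End regions gave 1.31 ± 0.81 (SD, n = 6 pairs). The ratio of deep to end coverage differed by -0.05 ± 0.19 (SD, n = 6 pairs; exact sign-flip permutation p = 0.469), with 2 pairs higher and 4 lower, so no difference in response to Dazl was detected.

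Region by region, limma called 687 deep regions (73.7%) higher with 4.2x Dazl and 0 lower, near the background of 74.6% of all 8338 regions. The median log2 change was 0.67 for deep regions, 0.81 for end regions and 0.77 for all. When libraries were scaled to the same total, limma called 0 deep regions, with 91 (9.76%) higher and 64 (6.87%) lower at an unadjusted p under 0.05, where 10.4% and 7.10% of all regions were. The largest changes were taken from called regions that moved the same way in every pair. They were in Anxa2 (an annexin that binds membranes), Tyms (thymidylate synthase), Atp13a3 (a membrane transporter), Dhx9 (an RNA helicase) and Vrk3 (of a kinase family). Their changes ran from 1.91 to 2.19. The Anxa2 region, chr9:69467271-69467287, had 1, 1 and 16 at 30, 180 and 680 s at 1 mW and 1x, and 27, 19 and 43 at 4.2x. With 2.6 mW the values were 2, 4 and 40 at 1x and 45, 45 and 55 at 4.2x. Its log2 change was 2.19 ± 0.31 (limma SE, adjusted p = 4.08e-09), higher in 6 of 6 pairs as the choice required. That SE, like the others from limma, rests on spread pooled over regions and is no replicate error. In these 5 regions the 1x libraries of 30 and 180 s were at 1 to 4, and the 4.2x libraries of the same times at 11 to 45.

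Laser power was compared in the same way over 6 pairs matched on time and Dazl level. Summed deep coverage was higher at 2.6 mW in all 6, by 1.64 ± 0.70 on the log2 scale (SD, n = 6 pairs; 3.11-fold; exact sign-flip permutation p = 0.0312). End regions gave 1.84 ± 0.91 (SD, n = 6 pairs). The ratio of deep to end coverage was lower at 2.6 mW in 6 of 6 pairs, by a mean log2 difference of -0.21 ± 0.23 (SD, n = 6 pairs; exact sign-flip permutation p = 0.0312). The pairs were unequal: the difference was -0.47 and -0.54 at 30 and 180 s with 1x Dazl, and between -0.14 and -0.0035 in the others. In the 1 mW, 1x libraries of 30 and 180 s, 81.2% and 88.9% of deep regions stood at the lowest value, against 69.7% and 75.8% of end regions. When the lowest value of each library was first taken off all regions, the mean difference was 0.06 (exact sign-flip permutation p = 0.844), with the opposite sign.

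Limma called 806 deep regions (86.5%) higher at 2.6 mW and 0 lower, against a background of 91.5% of all regions and 93.2% of end regions. The median log2 changes were 0.92, 1.12 and 1.20 for deep, all and end regions. With libraries scaled to the same total, limma called 0 deep regions, against a background of 0.012% (1 of 8338, higher). At an unadjusted limma p under 0.05, 42 deep regions (4.51%) were higher and 211 (22.6%) lower, where 10.1% and 14.9% of all regions were. Scaling raises regions at the lowest value most in the libraries of lowest total, those of 30 and 180 s at 1 mW and 1x. There 81.2% and 88.9% of deep regions stood at that value, against 69.7% and 75.8% of end regions. Such regions come out lower at 2.6 mW by construction, so the scaled shares cannot be read as a response to light. Again the largest changes were taken from called regions that moved the same way in every pair. These changes were in Sparc (a secreted matrix protein), Fbxl2 (an F-box protein), Unc13b (a vesicle priming factor), Copa (a COPI coat subunit) and Gcn1 (an activator of the kinase Gcn2). They ran from 2.02 to 2.27. The Sparc region, chr11:55409888-55409904, had 1, 1 and 20 at 30, 180 and 680 s at 1 mW and 1x, and 2, 1 and 21 at 1 mW and 4.2x. Under 2.6 mW the values were 26, 25 and 33 at 1x and 42, 35 and 42 at 4.2x. Its values at 30 and 180 s did not overlap between laser powers, whereas those at 1x and 4.2x Dazl were close at 1 mW. Its log2 change was 2.27 ± 0.31 (SE; limma, adjusted p = 3.75e-11) with laser power and 0.30 ± 0.31 (SE; limma, adjusted p = 0.357) with Dazl.

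**Figure D3:**
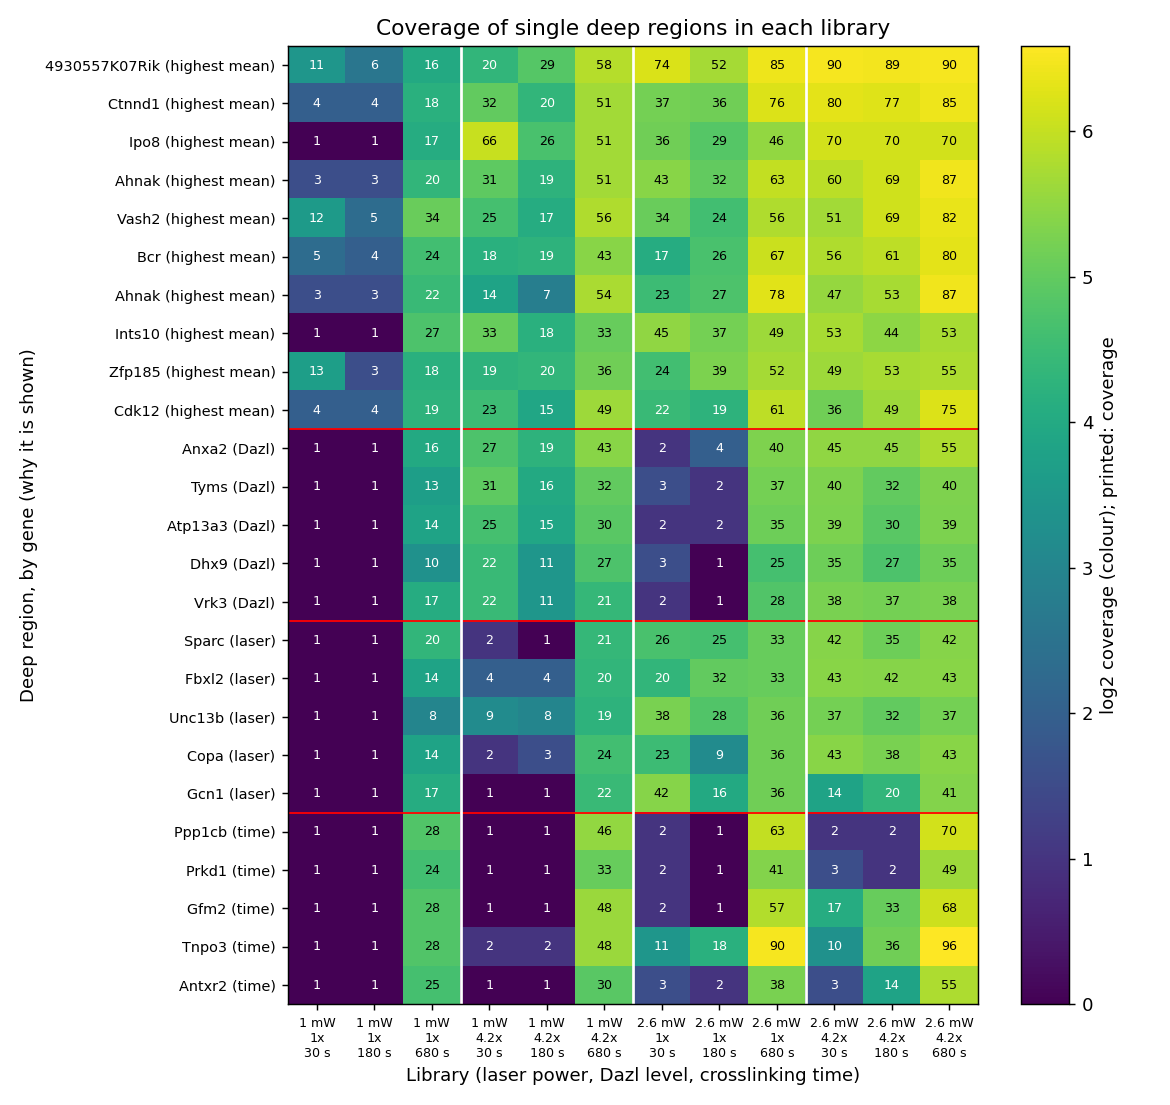
Coverage of 25 deep regions (rows, named by gene, with the reason for showing each) in each of the 12 libraries (columns). Colour is log2 coverage and the printed number is the coverage. The 10 highest regions are above the first red line, and below it follow the 5 largest changes with Dazl, with laser power and with time. These changes were taken from called regions that moved the same way in every pair or series. The regions chosen for time are at 1 to 3 in most libraries of 30 and 180 s and between 24 and 96 in those of 680 s.

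Crosslinking time was compared between 680 and 30 s in the 4 series of laser power and Dazl level. Summed deep coverage was higher at 680 s in 4 of 4 series, by 1.39 ± 0.68 on the log2 scale (SD, n = 4 series; 2.63-fold). The exact two-sided permutation test, which permutes the 3 times within each series, gave p = 0.034. Coverage did not climb evenly: at 180 s it was below that at 30 s in 3 of the series and above it only at 2.6 mW and 4.2x. The test of the time change lost significance when any of the 8 libraries of 30 or 680 s was left out (exact permutation p between 0.0648 and 0.0926). It gave 1.72 (exact permutation p = 0.0941) after the lowest value was taken off. End regions gave 1.25 ± 0.84 (SD, n = 4 series; exact permutation p = 0.0509). The ratio of deep to end coverage was higher at 680 s in 3 series and lower in that of 1 mW and 1x, with a mean of 0.15 ± 0.19 (SD, n = 4 series; exact permutation p = 0.114). A series without its 30 s or 680 s library drops out of the test. Without that of 1 mW and 1x, where the ratio fell, the ratio differed by 0.23 (exact permutation p = 0.0278). Without 1 of the other series it differed by 0.0894 to 0.15 (exact permutation p between 0.2315 and 0.3796). Above the lowest value it differed by 0.26 (exact permutation p = 0.228). Within the 67 genes that held both kinds of region it differed by 0.27 (exact permutation p = 0.0216).

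**Figure D4:**
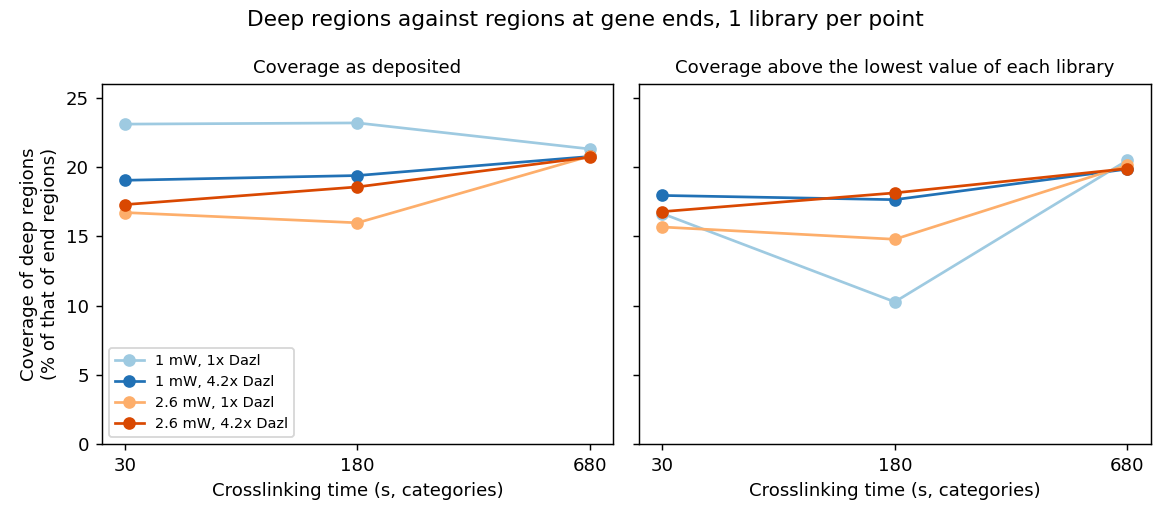
Summed coverage of deep regions as a percent of that of end regions (vertical axis, from 0) against crosslinking time (categories), with 1 line for each laser power and Dazl level and 1 library per point. As deposited (left), the 4 series run from 16.0% to 23.2% at 30 and 180 s and meet between 20.7% and 21.3% at 680 s. Above the lowest value of each library (right), the 1 mW, 1x series starts at 16.6%, falls to 10.3% at 180 s and reaches 20.5%.

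Limma called 619 deep regions (66.4%) higher at 680 than at 30 s and 0 lower, against a background of 61.5% of all regions and 59.5% of end regions. The median log2 change was 0.87 in each of the 3 sets. Some calls only followed the lowest value of the library, which was above 1 only at 680 s. The 2 regions of Diaph1 stood at the lowest value in all 12 libraries, and both were called higher. How many calls were of this kind was not counted. With libraries scaled to the same total, 143 deep regions (15.3%) were called higher, against a background of 13.3%, and 7 (0.751%) lower, against 1.37%. For time, the largest changes were taken from called regions that moved the same way in every series. These regions were in Ppp1cb (a catalytic subunit of protein phosphatase 1), Prkd1 (a kinase of the protein kinase D family), Gfm2 (a mitochondrial ribosome recycling factor), Tnpo3 (an import receptor of splicing factors) and Antxr2 (an anthrax toxin receptor). Their log2 changes ran from 2.97 to 3.54. The Ppp1cb region, chr5:32478208-32478224, had 1, 1 and 28 at 30, 180 and 680 s at 1 mW and 1x, and 1, 1 and 46 at 1 mW and 4.2x. At 2.6 mW it had 2, 1 and 63 at 1x and 2, 2 and 70 at 4.2x. It was near the lowest value in every library of 30 and 180 s and high in every library of 680 s. Its log2 change was 3.54 ± 0.33 (SE; limma, adjusted p = 2.54e-24). The Tnpo3 region, chr6:29560227-29560243, was at 10, 36 and 96 in the 2.6 mW, 4.2x series and at 1, 1 and 28 in the 1 mW, 1x series.

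The share of the 680 s coverage already present at 30 s was also taken for each series. In deep regions it was 19.9% at 1 mW and 1x, 45.9% at 1 mW and 4.2x, 38.1% at 2.6 mW and 1x, and 60.3% at 2.6 mW and 4.2x. In end regions it was 18.4%, 50.0%, 47.4% and 72.2% in the same order. Deep regions were lower in 3 of the 4 series, by a mean of -5.95 ± 5.96 percentage points over the 4 (SD, n = 4 series; exact sign-flip permutation p = 0.25). Above the lowest value they were lower in 4 of 4, by -7.24 ± 4.72 points (SD, n = 4 series; the exact sign-flip permutation p was the smallest that 4 series can give, above the threshold of 0.05). At 2.6 mW and 4.2x the median over single regions was 66.7% for deep and 91.7% for end regions. In that series 384 deep regions (41.2%) had at least 90% at 30 s and 199 (21.4%) had at most 25%, against 50.5% and 14.4% of end regions.

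The comparison depended on which gene end was taken. End regions within 1000 nt of the 3′ end (2252 of known strand) had 18.3%, 50.2%, 48.4% and 73.3% at 30 s in the 4 series. The other 328, within 1000 nt of the 5′ end only, had 17.7%, 45%, 38.5% and 60.7%, close to the values of deep regions. Against these 328 alone, deep regions differed by 0.58 points (exact sign-flip permutation p = 0.5), and their ratio over time differed by -0.04 on the log2 scale (exact permutation p = 0.196), each with the opposite sign. Among the deep regions, the 505 nearer the 3′ end had 19.1%, 44.5%, 39.1% and 60.4%, and the 215 nearer the 5′ end had 21.3%, 48.2%, 36.6% and 61.4%. These values do not follow which end was nearer in a fixed direction. At 2.6 mW and 4.2x the share was 72.2% within 1000 nt of an end, 69.0% at 1000 to 3000 nt, 63.7% at 3000 to 10000 nt and 58.3% at 10000 to 20000 nt. Farther inside it was 61.9% at 20000 to 50000 nt and 62.1% beyond. The 1 mW, 1x series did not show such an order as deposited, from 18.4% at the ends to 22.5% farthest inside. Above the lowest value it went from 9.83% at the ends to 7.62% farthest inside.

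**Figure D5:**
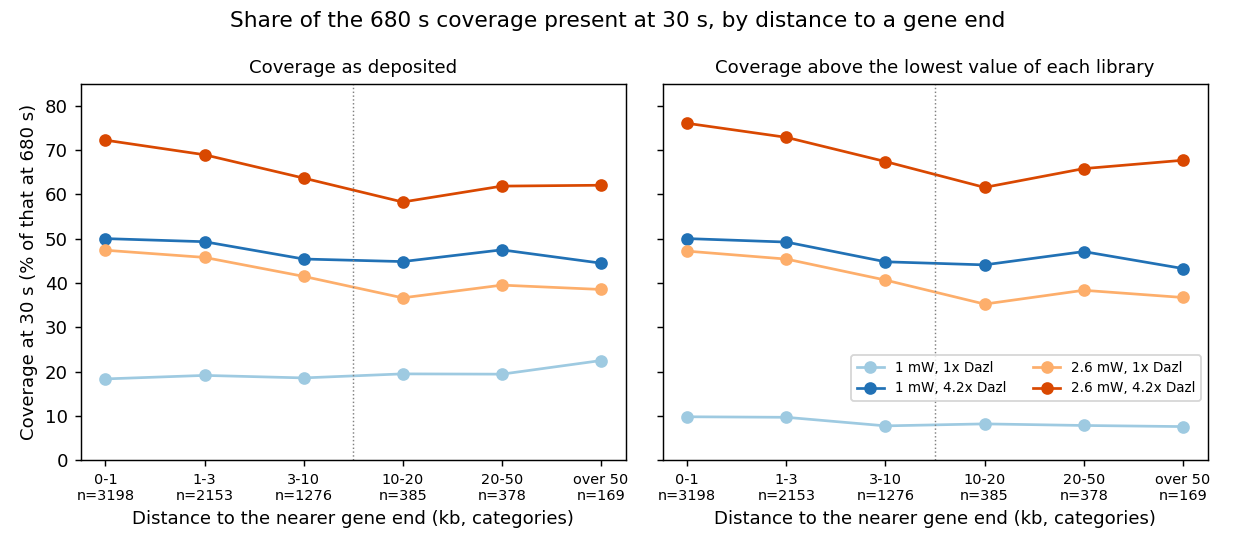
Coverage at 30 s as a percent of that at 680 s (vertical axis) against the distance to the nearer gene end in kb (categories, with the number of regions), with 1 line per series. Points right of the dotted line are deep regions. As deposited (left), the 2.6 mW, 4.2x line goes from 72.2% at the ends to 58.3% at 10 to 20 kb, and the 1 mW, 1x line stays between 18.4% and 22.5%.

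In 67 genes deep and end regions could be set against each other within a gene. The mean coverage per region was lower in the deep regions in 43 genes and higher in 24, with a median log2 ratio of -0.17. In 17-nt regions alone, where width does not differ, the median over 67 genes was -0.015. With a limit of 20000 nt in place of 10000, 36 genes remained and the median was 0.06. The share of coverage at 30 s in the 2.6 mW, 4.2x series had medians of 64.1% for deep and 75.5% for end regions, lower in deep regions in 36 genes and higher in 28. In Rpn2, which encodes a subunit of the oligosaccharyltransferase, the single deep region had a mean of 10.5 and the 5 end regions 51.7. Its share at 30 s was 12.1%, against 81.1% at the ends. In Rras2, a Ras-related GTPase gene, the means per region were 13.2 deep and 33.5 at the ends, and the shares 64.1% and 77.3%. In Fn1 the means were 12.1 and 19.0, but the share was higher in the deep regions, at 78% against 59.5%. In Sparc the means were 19.6 and 35.2, and the shares 87.2% and 86.8%. Ahnak had similar means, 16.3 over 22 deep regions and 15.8 in its end region. These genes are not replicates of each other, and no test was made over them.

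Genes were also grouped by function from lists of known members. Among the 3067 genes with a region in their span alone, 20% had a deep one, and the lists differed in this share. It was 50.0% for regulators of small GTPases (17 of 34 genes, among them Tbc1d1, Dock9, Rras2 and Bcr), which switch signalling and traffic proteins on and off. It was 42.6% for actin cytoskeleton and adhesion genes (20 of 47, with Ctnnd1, Macf1, Itga3 and Mprip) and 40.0% for membrane traffic genes (14 of 35, with Picalm, Copa, Cltc and Dync1h1). It was lowest for RNA-binding and splicing proteins, at 10.6% (7 of 66, with Ewsr1, Tnrc6c, Rbm33 and Dhx9). Extracellular matrix genes (9 of 28, 32.1%), chromatin regulators (11 of 34, 32.4%), protein kinases and phosphatases (19 of 66, 28.8%), transcription factors and coactivators (11 of 40, 27.5%) and ubiquitin enzymes (10 of 37, 27.0%) lay between. Long genes have more room for a deep region, and the share was not corrected for gene length.

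Response was also counted by list. With Dazl, limma called between 53.8% (RNA-binding proteins, 7 of 13 regions) and 100% (chromatin regulators, 14 of 14), against 73.7% of all deep regions and 74.6% of all 8338. With laser power the share ran from 75.8% (actin and adhesion, 25 of 33) to 100% (chromatin regulators, 14 of 14), against 86.5% of deep and 91.5% of all regions. With time it was 87.5% for membrane traffic (14 of 16) and between 53.8% and 75% for the other lists, against 66.4% of deep and 61.5% of all regions. The regions of the membrane traffic list had 41.6% of their 680 s coverage at 30 s in the 2.6 mW, 4.2x series, and those of chromatin regulators 83.3%, against 60.3% for all deep regions. The leading members of the traffic list differed. In that series the 2 regions of Cltc, the clathrin heavy chain, summed to 8 at 30 s, 28 at 180 s and 59 at 680 s, and the region of Dync1h1, a dynein heavy chain gene, was at 10, 25 and 43. The 2 regions of Picalm, a clathrin assembly gene, summed to 32, 38 and 57, whereas the Copa region was at 43, 38 and 43. Of the chromatin list, the 3 regions of Sin3b summed to 98, 91 and 98 and the single region of Ehmt1, a histone methyltransferase gene, was at 36, 38 and 39. The medians of the log2 time change were 1.52 for membrane traffic and 0.79 for chromatin regulators, against 0.87 for all deep and all regions.

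The 5 deep regions outside protein-coding genes had means from 1.5 to 51.7, against a range of 1.33 to 51.7 over all deep regions. Besides 4930557K07Rik, the lncRNA regions in Gm40121, Gm31323 and Gm15418 had means of 18, 15.4 and 12.1. The pseudogene region, in Nlrp5-ps, had a mean of 1.5 and never exceeded 3. Among markers of other testis cell types, Wt1, Kdr and Vwf had 1 deep region each and Pdgfra had 2, with means between 4.33 and 13.3. Most markers in these lists had no region at all. Any region was found for 2 of 8 Sertoli, 0 of 6 Leydig, 0 of 5 macrophage, 2 of 5 endothelial and 3 of 6 fibroblast and peritubular markers. The germ cell marker Mov10l1 had 1 with a mean of 2.42 and no value above 4.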

How the data were processed

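Coverage of Dazl-crosslinked RNA was used from 12 libraries, 1 for each combination of laser power, Dazl level and time. The deposited values are a score per interval, which the authors call normalized coverage, with no strand. The submitters' processing notes name FastQC, Bowtie2 and mm10. The steps from reads to sites are unstated (counting, normalization and selection: not given in the sources used here), so the depth in reads is unknown and no counting interval is given for coverage.

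Intervals of the 12 libraries at most 10 nt apart were joined, and the coverage of a region is the sum of width times score. Gene spans came from the RefSeq table of GRCm38.p6 (mm10), and strand and start sites from its table of start site windows (27025 genes). Regions in several genes (559), in none (186) or crossing the end of a span (34) are neither deep nor end regions. Sums were compared with exact sign-flip or permutation tests over matched libraries. Single regions were tested over all 8338 in limma 3.58.1 under R 4.3.3, on log2(coverage + 3) with additive terms for Dazl level, time and laser power, trend and robust eBayes, Benjamini-Hochberg adjustment and a threshold of 0.05. Such changes understate those of low regions. The fit had 7 residual degrees of freedom, and its median prior degrees of freedom were infinite. For a typical region the SE and p-value thus came from spread pooled over regions of like level, not from its own scatter. Tests were checked on simulated data. The members and the gene lists were chosen with earlier results of these data known. Regions named with values were the 10 highest by mean, the genes with most deep regions and the 5 farthest from an end. Also named were those next to the limit, those outside protein-coding genes, and the leading genes of each list and with both kinds of region. For each comparison the 5 largest changes were named among called regions with the same direction in every pair or series. Diaph1, Gpatch2, Cux1, Sin3b and the markers with a deep region were singled out after their values were seen. So were Smarcal1, Tulp4 and the other genes with a near start site. Alternatives changed the distance limits, the joining gap, the widths, the gene types, the scaling and the libraries. Comparisons above the lowest value, and with 1 gene end only, were added after seeing the data.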

Additional observations from a re-analysis of the deposited data

How the results depend on the processing

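The higher summed coverage of deep regions with Dazl and with laser power kept its direction under all alternatives run. Leaving out a library gave 1.08 to 1.44 for Dazl and 1.46 to 1.82 for laser power (log2), each at an exact sign-flip permutation p = 0.0625, the smallest that 5 pairs can give. For time it gave 1.08 to 1.61, and above the lowest value 1.72 (exact permutation p = 0.0941). The deep to end ratio with Dazl changed sign in regions with a mean of at least 10 (0.0093), above the lowest value (0.20) and in genes with both kinds of region (0.057), with no p under 0.05. With laser power the ratio was -0.16 at 5000 nt, -0.21 at 20000 nt, -0.18 in 17-nt regions, -0.23 as a median over regions and -0.14 in genes with both kinds, none past the threshold, and 0.0598 above the lowest value. Leaving out a library gave -0.25 to -0.14. With time the ratio was -0.0438 against 5′ end regions and 0.27 in genes with both kinds, and leaving out a library gave 0.0894 to 0.23. The difference in the share at 30 s was 0.58 points against 5′ end regions. Deep regions called higher with Dazl, laser power and time numbered 1130, 1354 and 1002 at 5000 nt, 408, 481 and 345 at 20000 nt, where the number of regions itself changes, and 0, 0 and 143 with libraries scaled to the same total. The deep share of regions was 20.3% at 5000 nt, 7.24% at 20000 nt, 14.0% with intervals joined only where they touch and 13.7% with a gap of 50 nt. The same-gene ratio was 0.0576 at 20000 nt and -0.0154 in 17-nt regions. Where no construction shows it, the cause was not tested.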
